A study of Strongylocentrotus purpuratus with 10 samples.

Results

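The genes described here encode translation factors, aminoacyl-tRNA ligases and related proteins of the purple sea urchin Strongylocentrotus purpuratus that the authors' deposited table lists as differential between brachyury morphant and control embryos. They were chosen by annotation, as rows whose first functional class is Translation or whose description contains "translation initiation factor", "elongation factor" or "tRNA ligase", leaving out ribosomal protein genes. This gave 39 of the 3542 genes of the table. Of these, 12 qualified by class and description, 16 by class alone and 11 by description alone. Every gene of the table has an adjusted p under 0.05 in the authors' test, so all 39 are called by construction, and that fact carries no information about them. For scale, the table holds 3251 of the 27446 protein-coding genes of the Spur_5.0 gene table (11.8%), with the number of genes the authors tested not given in the sources used here.

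RNA was taken from whole blastulae 24 h after fertilisation. There were 3 libraries of embryos injected as zygotes with 2 to 4 pl of a translation-blocking brachyury morpholino at 200 µM, and 3 libraries labelled as wild type controls, whose injection status the labels do not give. Chromatin of 24 h embryos gave 2 Brachyury antibody libraries, and each was paired with an input. Brachyury is a T-box transcription factor, and a translation-blocking morpholino acts on its protein without removing the mRNA. The labels call the RNA libraries biological replicates, but the files give no value or depth per library.

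Protein synthesis runs in steps. Initiation factors bring the small ribosomal subunit and the initiator tRNA to the start codon, elongation factors deliver each charged tRNA and move the ribosome along, and release factors free the finished chain. Aminoacyl-tRNA ligases charge each tRNA with its amino acid, and some of the kinases that phosphorylate individual factors slow the process. Sea urchin eggs hold a large store of maternal mRNA and ribosomes, and translation rises sharply at fertilisation.

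Signs are given as the table has them. The numerator of its log2 fold changes is not stated, so a negative value cannot be read as lower or higher in morphants from the file alone. A standard error can be inferred for each gene from its fold change and p-value if the p-value is that of a Wald test on the same fold change, and it is called the implied standard error below. It is not an error measured from replicates here. In whole embryos, fewer cells of a type and less RNA per cell cannot be told apart.

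The brachyury gene (LOC576774) itself stood at 1.18 on the log2 scale (adjusted p = 8.71e-05) in the authors' deposited table, which does not check a knockdown that blocks translation. Markers of embryonic territories were also called. Of 10 looked up, 6 were in the authors' deposited table, with Alx1 at 0.90, gcm at 0.76, FoxA at -0.67, SoxB1 at -0.82, Gsc at -1.68 and hox1 (named Hox7) at -2.16, and their part in the results below was not tested.

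Most of the 39 genes stood on the negative side. Of the 39, 28 were negative (71.8%) and 11 positive in the authors' deposited table, against 51.6% negative and 48.4% positive among all 3542 genes. With an adjusted p under 0.01 in the authors' deposited table, 27 genes were left (69.2%, against 62.4% of all genes), 20 of them negative (74.1%, against 55.4%). Of the 14 whose values reached 1 in size on the log2 scale in the authors' deposited table, 11 were negative (78.6%, against 60.4%). Those 14 make up 35.9% of the genes, against 53.9% of all genes of the authors' deposited table. The median implied standard error was 0.19 for the 39 genes and 0.27 for all genes. Less precise genes are called only with larger changes, so these shares are not like for like. The median log2 fold change was -0.73 for the 39 genes and -0.51 for the whole table, both from the authors' deposited values. As only called genes are listed, values near zero are absent and a signed median depends largely on the share of negative genes. In absolute size the median was 0.94 for the 39 genes and 1.06 for all genes of the authors' deposited table. Among negative genes alone it was -0.95 and -1.19 there. Ribosomal protein genes, counted apart, were negative for 86 of 88 with a median of -1.21 in the authors' deposited table. Lowest in adjusted p among them were Rpl32 (LOC115927475), Rpl8 (LOC592315), Rps3 (LOC593744) and a copy of Rpl32 (LOC576760), at -2.21, -1.70, -1.44 and -1.62 in the authors' deposited table. Outside both groups, 50.2% of 3415 genes were negative. No test of the list was made.

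**Figure D1:**
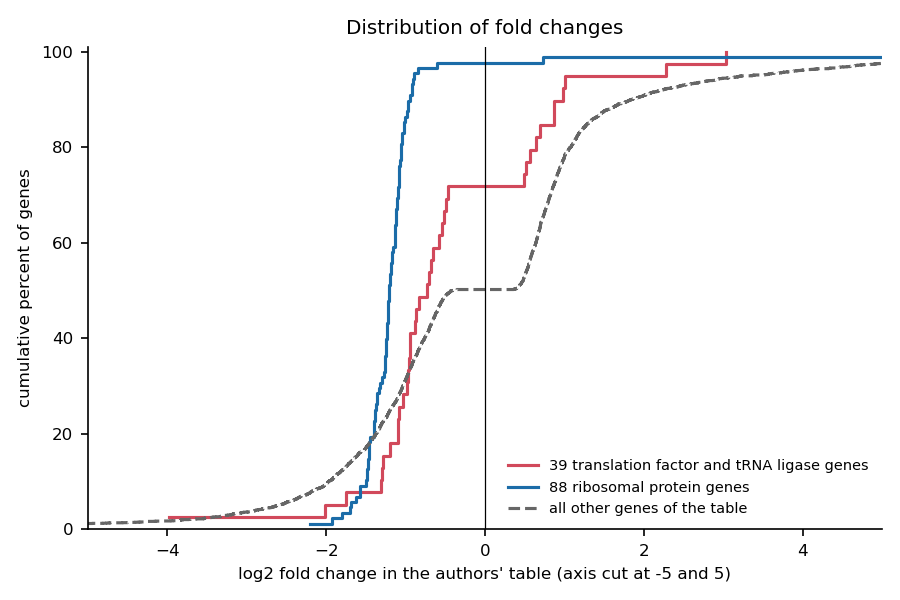
Cumulative percent of genes (vertical axis) against the log2 fold change in the authors' table (horizontal axis) for the 39 translation factor and tRNA ligase genes, the 88 ribosomal protein genes and all other genes of the table. The curve of the 39 genes crosses zero at 71.8%, between the ribosomal protein genes at 97.7% and the other genes at 50.2%, and the flat stretch around zero is there because the table holds only called genes. The horizontal axis stops short of the most extreme values.

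Initiation factors were negative for 6 of 7 genes, and for 5 of the 6 that are named here. The lowest was the gene of eIF3m (LOC589955), a subunit of the large eIF3 complex that sits on the small ribosomal subunit, at -1.75 on the log2 scale (adjusted p = 3.87e-05, implied standard error 0.36) in the authors' deposited table. Both other eIF3 genes were smaller in size, with eIF3f (LOC763457) at -0.83 and eIF3c (LOC582932) at -0.58 in the authors' deposited table. These 3 genes described as eIF3 subunits were negative, whereas a row that carries an eIF3 name (Eif3s5L, LOC578650) but is described as a leucine-rich repeat protein, and so falls outside the rule, stood at 0.76 in the authors' deposited table.

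Wbscr1L (LOC583328), whose human relative is eIF4H, a helper of the eIF4A helicase, stood at -0.51 in the authors' deposited table, although it is described as a glycine-rich RNA-binding protein. The gene of eIF5A (LOC580746), the hypusine-bearing factor that acts mainly when ribosomes stall, stood at -0.47 there, the negative initiation factor closest to zero in the authors' deposited table. It is counted with the initiation factors by its description, although the authors' annotation gives it translation elongation factor activity. The exception in sign was eIF1A (LOC581190), which promotes scanning and start codon choice, at 0.51 (adjusted p = 0.012) in the authors' deposited table. Its value and that of eIF4H are of nearly equal size and opposite sign.

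Elongation factors of translation were negative for all 4 genes. Ef1a (LOC548620), which delivers charged tRNAs to the ribosome, stood at -0.66 on the log2 scale (adjusted p = 0.0022) in the authors' deposited table. The genes of its exchange factor, eef1Bb and eef1G, had -0.94 and -1.03 in the authors' deposited table. Ef2 (LOC115920562), which moves the ribosome along the mRNA, was lowest at -2.01 (adjusted p = 1.14e-23, implied standard error 0.19) in the authors' deposited table. That row is a transcribed pseudogene in the Spur_5.0 gene table. Its description comes from a protein-coding gene, LOC592801, which is not in the differential table. Reads may be split between the copies, and the Ef2 value is uncertain.

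The kinase of Ef2 lay on the other side. Ef2k (LOC583067), which phosphorylates elongation factor 2 and so slows elongation, stood at 1.01 on the log2 scale (adjusted p = 2.49e-05, implied standard error 0.21) in the authors' deposited table, the highest among the 34 protein-coding genes that span at least 1 kb. PERK (LOC587307), the kinase of the endoplasmic reticulum that phosphorylates the alpha subunit of eIF2 under stress, had -0.89 (adjusted p = 5.56e-05) in the authors' deposited table. The kinases stood on opposite sides of zero.

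Termination genes were split as well. Erf1 (LOC591483), the release factor that reads all stop codons, stood at 0.69 on the log2 scale (adjusted p = 0.00045) in the authors' deposited table. Ict1L (LOC762829), related to the mitochondrial peptidyl-tRNA hydrolase that rescues stalled ribosomes, had -1.08 there (adjusted p = 0.0080 in the authors' deposited table).

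Of the other genes of the class, Bzw1 (LOC587479), whose mammalian relative mimics eIF5 and competes with it for eIF2, had 0.87 in the authors' deposited table. Cgi09l (LOC578228), described as TRM6, the non-catalytic subunit of a tRNA methyltransferase whose yeast counterpart was first found as an initiation gene, had 0.98 there (adjusted p = 2.79e-06 in the authors' deposited table). The Kiaa0664L genes, relatives of the clustered mitochondria protein that binds mRNAs of mitochondrial proteins in mammals and associates with eIF3 in yeast, were both negative in the authors' deposited table, at -1.31 (LOC592927) and -0.97 (LOC588872). They share 1 gene model and 1 description, lie 927 kb apart if the inferred scaffold holds, and may divide reads between them.

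**Figure D2:**
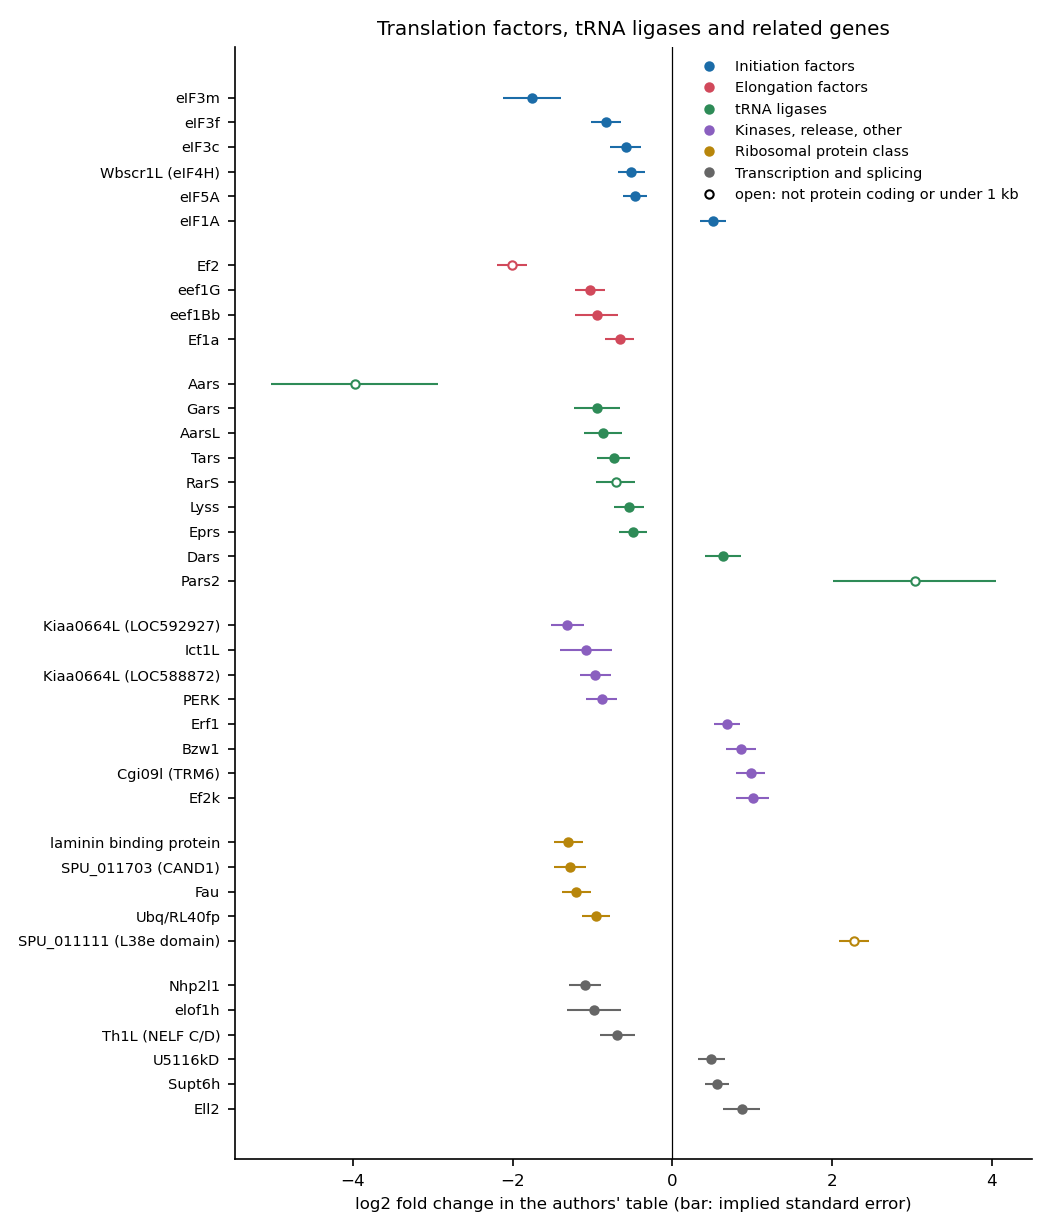
Log2 fold change in the authors' table (horizontal axis) for 38 of the 39 genes, grouped by role, with bars for the implied standard error. Open points mark gene models that are not protein coding or span under 1 kb. All 4 elongation factors lie left of zero, 5 of the 6 initiation factors drawn do, and both extreme values, Aars at -3.98 and Pars2 at 3.03, carry the widest bars. A gene with a wide bar could be called only with a large value.

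Aminoacyl-tRNA ligases were negative for 7 of 9 genes. Of the 7 negative genes, 6 lay in a narrow band in the authors' deposited table, with Gars (glycine, LOC578936) at -0.94, AarsL (alanine, LOC105440574) at -0.87, Tars (threonine, LOC755937) at -0.73, RarS (arginine, LOC579923) at -0.71, Lyss (lysine, LOC588700) at -0.54 and Eprs (glutamate and proline, LOC115929473) at -0.49. Their implied standard errors lay between 0.18 and 0.28, so that neighbours in this order differed by less than 1 implied standard error. At such errors, values much closer to zero could not be called, so the band's edge towards zero is partly fixed in advance. All 9 carry a tRNA synthetase domain in the authors' annotation, class II in 7 and class I in 2.

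Among the remaining ligases, Aars and Pars2 had the widest implied standard errors. Aars (LOC591725) had the lowest value of all 39 genes, -3.98 in the authors' deposited table, with an implied standard error of 1.05 and an adjusted p of 0.0058. Its gene model spans only 997 bp, whereas the gene its description names, LOC589790, spans 24747 bp and is not in the table. By inferred scaffold it lies 33.6 kb from AarsL, and both are annotated as alanine ligases. Pars2 (LOC115922533), the mitochondrial proline ligase, had the highest value, 3.03 in the authors' deposited table, with an implied standard error of 1.02. Its model spans 861 bp, against 13683 bp for the gene that its description names, and its adjusted p of 0.039 is the one closest to the threshold among the 39. Dars (LOC588558), named for the aspartate ligase, was the other positive ligase at 0.64 (adjusted p = 0.027) in the authors' deposited table. Its implied standard error, 0.22, lay within the range of the band of negative ligases, and the gene table calls Dars protein coding. Its description, however, is that of an uncharacterised noncoding RNA with another ID, LOC580219. Doubts of this kind also held for negative ligases. AarsL is described as an uncharacterised gene, and RarS is a long noncoding RNA in the gene table. The descriptions of AarsL, Tars, RarS and Eprs name another gene ID. With an adjusted p under 0.01, 4 ligases were left and all 4 were negative.

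Of the 39 genes, 6 are classed by the authors with ribosomal proteins without being named as such, and 5 of these were negative. Nhp2l1 is described with the splicing genes below. The other negative ones are the laminin binding protein gene (LOC373183; ribosomal protein SA domain) at -1.30, Fau (LOC577982; ribosomal protein S30 fused to a ubiquitin-like protein) at -1.20, Ubq/RL40fp (LOC584839; ubiquitin fused to L40) at -0.95 and SPU_011703 (LOC100888621; described as the cullin regulator CAND1, with an acidic ribosomal protein domain) at -1.28 in the authors' deposited table. These values lie close to the ribosomal protein median of -1.21. SPU_011111 (LOC589123), which has no description and carries the domain of ribosomal protein L38e, stood apart at 2.27 with the lowest adjusted p of the 39 genes, 2.13e-29 in the authors' deposited table. The gene table calls it a miscellaneous RNA of 2912 bp. Among ribosomal protein genes proper, the 2 positive ones, named after their values were seen, were Rpl7a (LOC574574) at 6.13 with an implied standard error of 1.76 and a mitochondrial L11 gene (LOC580926) at 0.73 in the authors' deposited table.

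Another 6 genes met the rule by class or wording but act outside protein synthesis, and they split evenly. The transcription elongation genes Ell2 (LOC586975) and Supt6h (LOC576920), which help RNA polymerase II along the gene, had 0.87 and 0.56 in the authors' deposited table. Th1L (LOC581078), a subunit of the negative elongation factor that holds the polymerase near the start, and elof1h (LOC115918980) had -0.69 and -0.98 there, in the authors' deposited table. U5116kD (LOC588702), a spliceosomal GTPase related to elongation factor 2, had 0.49 and Nhp2l1 (LOC115917922), an RNA-binding protein of splicing and nucleolar particles, -1.09 in the authors' deposited table. Without these 6 and the CAND1 gene, 24 of 32 genes were negative in the authors' deposited table.

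The most extreme values among the 39 genes belonged to unusual gene models. Of the 39 genes, 3 are not protein coding in the gene table (7.7%, against 8.2% of all table genes), namely Ef2, RarS and SPU_011111, and 2 span less than 1 kb, Aars and Pars2. The 34 other genes, in the authors' deposited table, ran from -1.75 to 1.01, whereas 4 of these 5 lay outside that range. For Aars and Pars2 this is partly fixed in advance, since a gene with a wide implied standard error could be called only with a large value. The share of models under 1 kb over all table genes is not given here. Of the 34, 25 were negative. For 16 of the 39 genes the description names another gene ID than the row's own. Of those 16 IDs 14 are in the gene table and 1, LOC588872, is itself in the differential table. Descriptions that name the row's own ID make up 56.4% of the 39 genes, against 61.5% of all table genes.

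**Figure D3:**
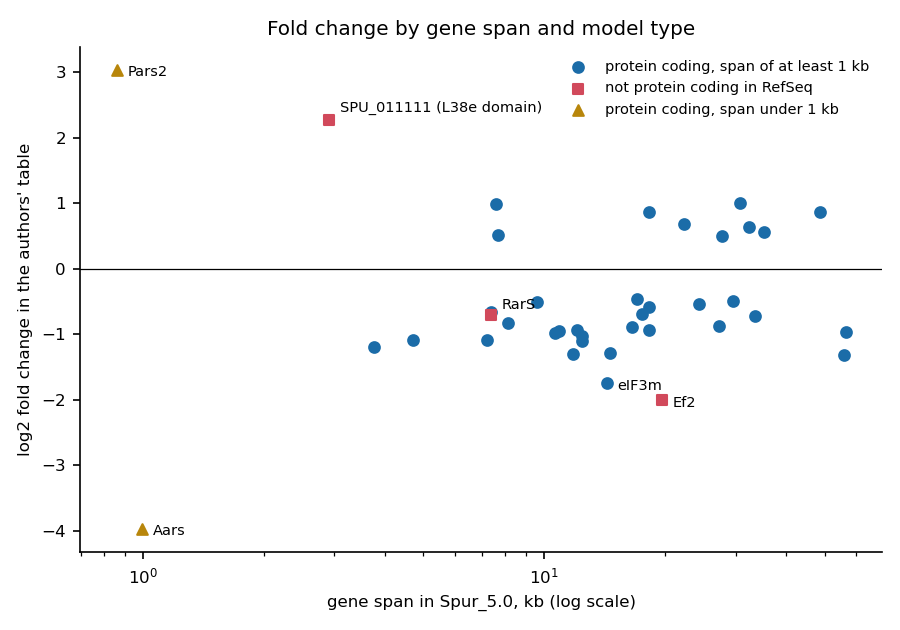
Log2 fold change in the authors' table (vertical axis) against the gene span in Spur_5.0 in kb (log scale) for the 39 genes, by type of gene model. The 34 protein-coding genes of at least 1 kb lie between -1.75 and 1.01, and Aars, Pars2, Ef2 and SPU_011111 lie beyond that range.

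The adjusted p-values do not follow the p-values gene by gene. Aars and Ef1a had p-values of 0.000144 and 0.000189 but adjusted p-values of 0.0058 and 0.0022 in the authors' deposited table. Pars2 and eIF3c had nearly equal p-values of 0.00286 and 0.00288 and adjusted p-values of 0.039 and 0.020 in the authors' deposited table. An unweighted Benjamini-Hochberg adjustment cannot invert such pairs, and among all 741 pairs of the 39 genes 27 were inverted (3.6%). Dividing p by the adjusted p and by the rank of the adjusted p gives 1 constant in an unweighted adjustment. Over the 2125 table genes with a p of at least 0.0001 in the authors' deposited table, 98.4% fell on 45 values (within 0.1%) that at least 10 genes shared. The largest of these was 8.15 times the smallest. How the authors adjusted the p-values was not given in the sources used here.

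**Figure D4:**
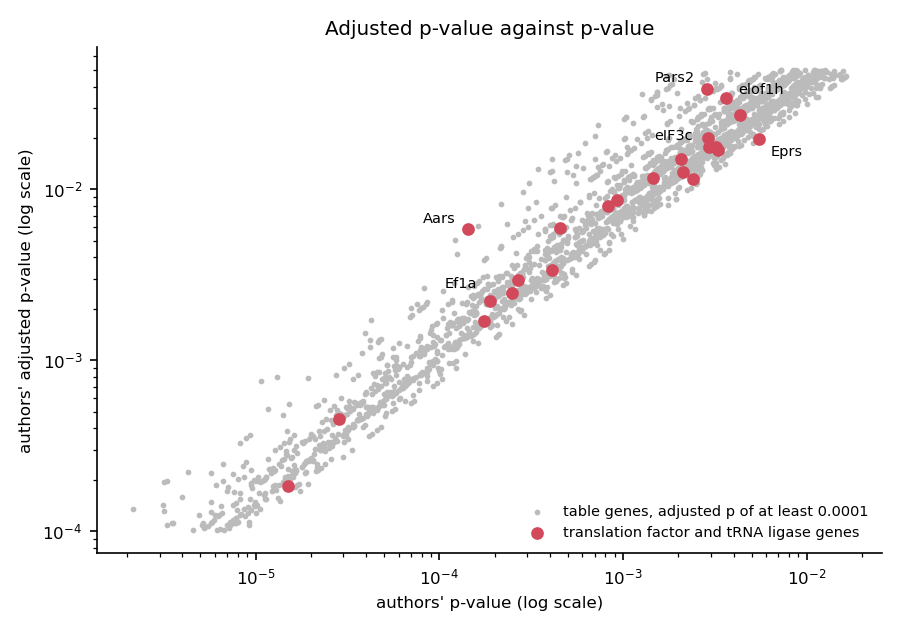
Authors' adjusted p-value (vertical axis) against the authors' p-value (horizontal axis), both on log scales, for table genes with an adjusted p of at least 0.0001 (grey) and for the translation factor and tRNA ligase genes among them. At a given p the adjusted p-values spread, with Aars and Pars2 near the upper edge of the points and Eprs near the lower edge.

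Other genes of protein synthesis were looked up by description. For scale, 51.6% of all genes of the authors' deposited table were negative and 48.4% positive. Only called genes could be found, and copies that share a description count as separate rows. Nucleolar ribosome biogenesis genes were negative for 8 of 9 rows in the authors' deposited table. They include both fibrillarin copies, the rRNA methyltransferase, at -1.43 (LOC752335) and -1.03 (LOC591797), and the exosome subunit gene RRP43 (LOC592373), whose complex trims rRNA precursors, at -0.97 in the authors' deposited table. A nucleolin row (LOC105445258) at -9.42 in the authors' deposited table is a long noncoding RNA in the gene table. The exception was the gene of IMP4 (LOC583717), a protein of the U3 particle, at 0.68 there, in the authors' deposited table.

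The cytosolic chaperonin and the nascent polypeptide complex receive new chains at the ribosome. Their genes were negative for 10 of 11 rows of the authors' deposited table, against 51.6% of all its genes, with copies again counted separately. Cct3 (LOC574601) had -0.79 and both zeta subunit genes -0.94 (LOC582905) and -0.80 (LOC577393) in the authors' deposited table. A row for the nascent polypeptide complex (LOC115924195) had -1.04, and the exception, LOC576916, which carries the same name, 0.44 in the authors' deposited table. The tRNA modification list split into 2 positive and 2 negative rows, with TRM6 above and a uracil methyltransferase row (LOC583073, 1.00) on the positive side, and the methyltransferase subunit gene Wdr4_1 (LOC587020, -1.41) and a row described as elongator subunit 6 (LOC580692, -1.06) on the negative side of the authors' deposited table. Both tRNA splicing genes were positive there, the splicing ligase RtcB homolog (LOC588300) at 2.48 with an adjusted p of 1.69e-20 and the endonuclease subunit gene Sen15 (LOC100892594) at 2.00 in the authors' deposited table. RNA polymerase I and III gave 1 positive and 2 negative rows, the negative ones being copies of Polr1C at -0.82 (LOC115929536) and -0.76 (LOC590827) and the positive one a polymerase I subunit (LOC105446422) at 0.69 in the authors' deposited table. The mTOR pathway gave 1 row of each sign, with raptor (LOC586135) at 0.65 and a row described as hamartin but named Surf5 (LOC583077) at -0.72 in the authors' deposited table. A gene for a protein that binds and inhibits the poly(A)-binding protein (LOC763610) stood at 1.35 in the authors' deposited table. No row matched the 4E-binding proteins, ATF4 or the signal recognition particle.

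Within 10 kb, the share of these genes with a combined Brachyury peak was near that of the table, but rests on 1 gene. Such a count cannot show that the shares are equal. Scaffolds of nuclear genes were inferred from the order of the gene table, which placed 35 of the 39 genes and 3244 of the 3542. In the authors' combined list, 1 of the 35 had a peak midpoint within 10 kb of its span (2.9%), against 2.84% of placed table genes. It was the transcription gene Ell2, with a peak at NW_022145615.1 from 32666675 to 32666958 in Spur_5.0, 8874 bp from the gene. That peak had a score of 1.51, a fold of 3.49 over input and a false discovery rate of 8.05% in the authors' list. Within 50 kb the count was again 1 of 35 (2.9%), the same gene, against 7.15% of placed table genes. None of the placed translation factors or tRNA ligases thus had a combined peak at either distance. Within 5 kb the count was 0 of 35, against 2.22% of placed table genes, and with combined peaks of a fold of at least 5 it was 0 of 35, against 1.42%.

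The full lists of single antibody libraries touched more of the genes. Antibody library 1 marked 3 of 35, namely Lyss, Ell2 and U5116kD, against 7.71% of placed table genes. Antibody library 2 marked 8 of 35 (22.9%), against 29.0% of placed table genes. These were Ef1a, PERK, Erf1, SPU_011111, the laminin binding protein gene, Ell2, Supt6h and U5116kD. Peaks inside Ef1a, PERK and Erf1 had scores of 0.75, 0.59 and 0.72 and false discovery rates of 20.1%, 35.1% and 23.3%, in a list with a median score of 0.72 and a highest score of 41.68. The library 2 peak near SPU_011111, at 7806 bp, had a score of 1.12, a fold of 3.57 over input and a false discovery rate of 6.02%. The peak nearest to Lyss in library 1, at 8758 bp, had a fold of 8.71 over input and a false discovery rate of 21.8%. The lowest false discovery rate in the library 1 list was 10.87%. Split by sign, 5 of the 9 placed positive genes and 3 of the 26 placed negative ones were marked in library 2. The 5 positive ones were Erf1, SPU_011111, Ell2, Supt6h and U5116kD. Of these, Ell2, Supt6h and U5116kD act outside protein synthesis, and only Erf1 is a translation factor. Over all placed table genes the shares were 36.3% on the positive side and 21.8% on the negative. Median spans were 22310 bp for the 9 positive genes and 14450 bp for the 26 negative ones, and the part of length in this split was not tested.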

How the data were processed

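RNA and chromatin libraries of whole blastulae were described by 4 deposited files. Tools named in the submitters' processing notes, without saying what each did, are BWA 0.7.17, DESeq2 1.28.1, Salmon 0.11.3 and Trimmomatic 0.38. For each gene the authors deposited a log2 fold change, a p-value and an adjusted p-value. Peak score, fold (ratio) over input and the false discovery rate in percent were deposited by the authors, per the file headers, with 1 list for each antibody library and 1 combined list. The way peaks were called was not stated in the labels or headers used here. The 4 columns of antibody and input values at peaks were not used.

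No gene was tested again, since the files give the authors' statistics only. The implied standard error is the absolute log2 fold change over the normal quantile of the p-value. The first word of the table's functional class was used, with TranslationFactor counted as Translation. All 3542 gene IDs matched the Spur_5.0 gene table, which names no scaffold for nuclear genes. Its runs of rising coordinates over 20 Mb were matched, first to last, to 21 scaffolds with more than 100 library 2 peaks each, and no peak of these lay past the last gene of its run. Peaks count for every gene span within 10 kb of their midpoint. Of the 39 genes, 38 are named and 1, an initiation factor row, is counted but not reported here, and of each other list up to 4 rows by adjusted p. IMP4, LOC576916 and LOC578650, named beyond that, were singled out after their values were seen. The genes and lists were chosen with earlier results of these data known. The calculation of implied errors, the grouping of adjusted p-values and the assignment of peaks to genes were checked on simulated data. Wald p-values were simulated, so the check cannot show that the authors' p-values are of that kind. Scaffolds were given in the simulated data, so their inference was not checked there. Alternatives were stricter thresholds, other readings of the rule, 1 gene per name, peak distances of 5 and 50 kb, and other peak lists. No sequence is shown, since none was used here. matplotlib 3.10.9, scipy 1.17.1, pandas 2.3.3 and numpy 2.4.6 were run under Python 3.11.15.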

Additional observations from a re-analysis of the deposited data

How the results depend on the processing

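The negative side kept the majority of the 39 genes under all 10 alternatives, between 67.9% (class alone, 19 of 28) and 78.6% (11 of 14 with changes of 1 or more in size on the log2 scale). The median log2 fold change, -0.73, stayed within 1.5 times of that value except among those 14 genes, where it was -1.15, as that choice removes small values. With an adjusted p under 0.01, 100% of 3 initiation factors and 100% of 4 ligases were negative, as were 100% of the 2 initiation factors with changes of 1 or more in size. Both initiation counts include the 1 gene not reported here, and without it 2 and 1 genes remain, all negative. The ligases of that size were 1 of each sign. Genes with a peak numbered 1 in the combined list within 10 kb, 1 within 50 kb, 0 within 5 kb, 0 with a fold of at least 5, 3 in library 1 and 8 in library 2. Restricting to protein-coding models of at least 1 kb, to own-ID descriptions, to the exact class or to 28 genes of protein synthesis was chosen after seeing the data. No paired analysis was possible because the files hold no values per library, and leaving out replicates was not run for that reason. The share of annotated genes was not run, since the gene table gives no descriptions.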

Other observations

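Genes next to those of the rule, named after their values were seen, stood on both sides of zero. Both copies of the scaffold protein AIMP1 (Scye1), which holds cytosolic tRNA ligases in a complex, had log2 fold changes of -1.15 (LOC115918084) and -0.96 (LOC594706) in the authors' deposited table. Both copies of Gcn1l1, whose yeast counterpart senses stalled ribosomes for the eIF2 kinase Gcn2, had -1.20 (LOC115919177) and -0.85 (LOC583423) there, in the authors' deposited table. The poly(A)-binding protein gene pabp had -0.50 in the authors' deposited table. Trpt1 (LOC581663), a tRNA phosphotransferase known from tRNA splicing in yeast, had 2.35 (adjusted p = 3.39e-05) in the authors' deposited table, on the same side as RtcB and Sen15. A row named Eif5B_1 (LOC578331) but described as ubiquitin-fold modifier 1 had -1.11 in the authors' deposited table and met neither part of the rule.

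None of the 13 protein-coding genes of the mitochondrial genome was found in the differential table. Of the markers looked up, hatching enzyme, SpAN, Blimp1 and FoxQ2 were not matched by name there.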
